A study of Mus musculus with 8 samples.

Results

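The genes described are 34 mouse chemokine ligands, the listed members of the Ccl, Cxcl, Cx3cl and Xcl families together with Pf4 and Ppbp, which also are CXC chemokines. They were taken from a list by name, which was chosen with earlier results of these data known. All 34 had a value among the 19752 genes measured in whole tibialis anterior, a muscle of the lower leg. Of the 34, 28 were bright enough on average over the 8 arrays to be tested, and 6 (Ccl4, Ccl28, Cxcl2, Cxcl3, Cxcl5 and Cxcl15) were dim. A gene was dim where its mean log2 intensity lay under 6.65, the 25th percentile of all genes, and 4 of the 6 dim members were above that level on at least 1 array.

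The muscles came from aged male C57BL/6 mice, whose age is 99 weeks in the labels and 22 months in the design text. Every muscle had been cryoinjured by 8 s of contact with metal chilled in liquid nitrogen, and the muscle was taken on day 8 after injury. The treated group received recombinant interleukin 33 (rIL-33), an alarmin cytokine, as 2 µg into the peritoneum on the day before and again on the day after injury, and was measured on 4 arrays. The control group carries the treatment label PBS, a buffered saline, and was also measured on 4 arrays; its injection schedule is not stated in the labels. Each group is also divided by genetic background: its first pair of arrays (replicates 1 and 2) is labelled C57BL/6 and its other pair (replicates 3 and 4) WT, without a stated difference. No uninjured muscle was analysed here, so the values compare treatments in injured muscle only.

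Chemokines are small secreted proteins that bind G protein-coupled receptors on leukocytes and direct their migration. Inflammatory chemokines are induced in damaged tissue and draw in neutrophils, monocytes, eosinophils and effector lymphocytes, whereas homeostatic chemokines are made constantly and place cells within tissues. In injured muscle, neutrophils enter first, monocytes follow and become macrophages, and fibroblast-like progenitors (fibro-adipogenic progenitors) and satellite cells take part in the repair, so that ligands from several cell types are read together in whole tissue.

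The median intensity was 222.6 to 232.2 over the arrays, and log2 values correlated between arrays with a Pearson r of 0.983 to 0.996 across genes. All 10 muscle fibre markers were measured above the dim level, with summed intensities of 89066 to 103575. Over all 14814 genes tested, limma called 1 gene at an adjusted p under 0.05: Retnla, a marker of alternatively activated macrophages, which rose by 2.74 on the log2 scale (adjusted p = 0.00568). PBS replicate 4 stood apart in chemokine levels: it was the highest of the 8 arrays for 17 of the 34 members (50%), against 12.4% of all genes. The array of rIL-33 replicate 1 was the lowest for 13 of the 34 members and for 18.5% of all genes. Because whole muscle was homogenised, fewer cells of a type and less RNA per cell cannot be told apart.

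More chemokine ligands were lower than higher after rIL-33, but no single member passed the adjusted threshold. Of the 28 tested members, 19 (67.9%) were lower and 9 were higher, while 52% of all genes tested were lower. The median log2 difference, rIL-33 minus PBS, was -0.11 over the tested members and -0.01 over all genes tested. For 12 of the 28 the difference was smaller than 0.2. Limma placed 6 members, or 21.4% of those tested, at an unadjusted p under 0.05 in the lower direction, where 5.24% of all genes were, and 0 in the higher direction, where 4.39% of all genes were. The 6 were Ccl5, Ccl3, Ppbp, Pf4, Cxcl16 and Cxcl14. None of the 28 had an adjusted p under 0.05 (the smallest was 0.489), as against 0.00675% of all genes. In 0 members did all arrays of a treatment lie below all arrays of the other, which 2.13% of all genes did, and 0 lay above, which 2.44% did.

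**Figure D1:**
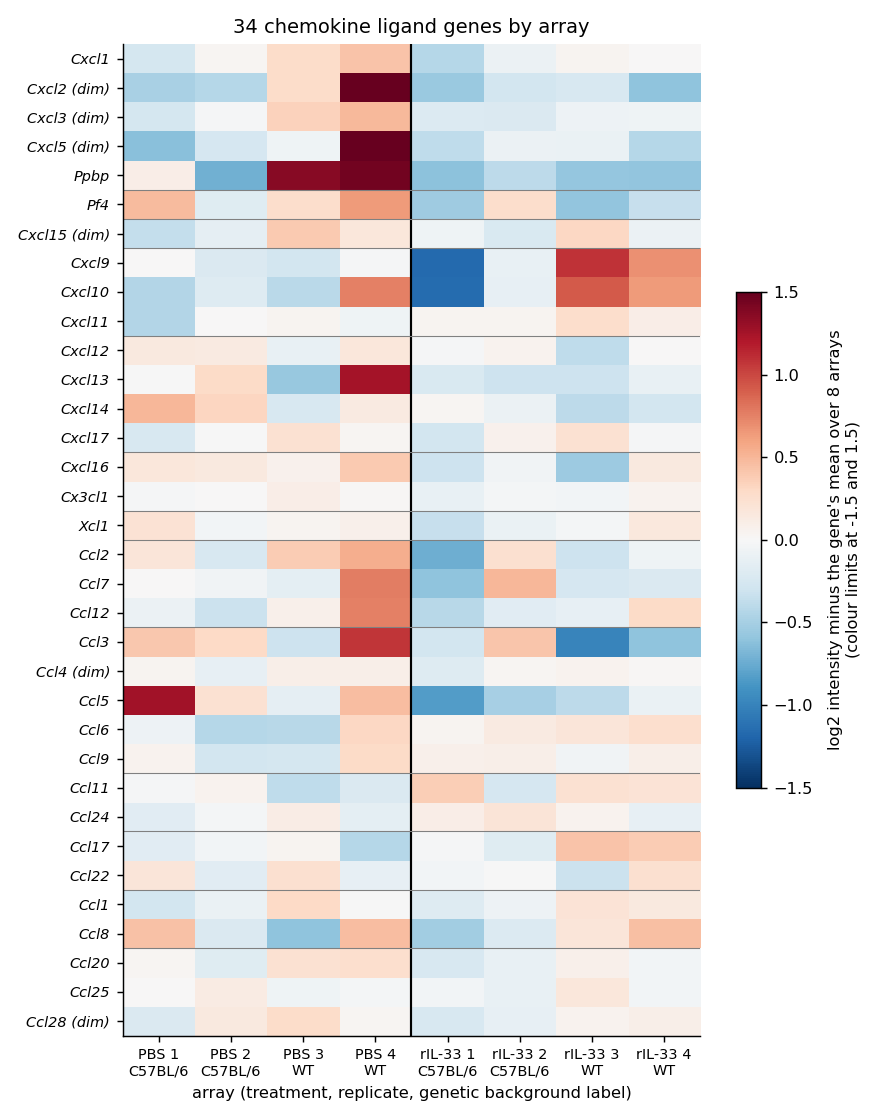
Log2 intensity of each of the 34 chemokine ligands on each array, as the deviation from the member's mean over the 8 arrays (colour in log2 units, limited at -1.5 and 1.5; members in order of role). PBS replicate 4 held the highest value of 17 members and rIL-33 replicate 1 the lowest of 13.

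The count of 6 changed when single arrays were left out. Without PBS replicate 4, Ccl5 (lower) and Ccl6 (higher) were the members at an unadjusted p under 0.05. Without rIL-33 replicate 3, Ccl5 and Ppbp (both lower) were. The totals over all genes moved as well with an array left out, from 270 to 949 higher and 368 to 943 lower, against 651 and 776. Other scalings moved the higher side: quantile normalization gave 2 members higher (Ccl17 and Cxcl11) and 6 lower, with 764 genes higher and 903 lower in all, and cyclic loess 2 members higher and 7 lower, with 697 genes higher and 967 lower. With a block for the background label, 2 members were higher (Ccl17 and Cxcl11) and 9 lower (the 6 with Ccl2, Ccl20 and Cxcl1), with 1174 genes higher and 1070 lower in all. The genetic background labels divided the members further. Within the C57BL/6 label, limma placed 3 of the 28 (10.7%, against 2.57% of all genes) at an unadjusted p under 0.05 in the lower direction and 0 in the higher (2.06% of all genes). Those 3 were Ccl5, Cxcl14 and Xcl1. Within the WT label 5 were lower (17.9%, against 4.29% of all genes), namely Ccl2, Ccl3, Cxcl1, Pf4 and Ppbp. There 3 were higher (10.7%, against 8.01% of all genes), namely Ccl11, Ccl17 and Cxcl9. Members with a difference below 0 numbered 20 of 28 within the C57BL/6 label, where 54.7% of all genes were below 0, and 17 of 28 within the WT label, where 49.5% were. The differences had the same sign in both labels for 21 of the 28. A test of the difference between the labels gave an unadjusted p under 0.05 for 4 members (14.3%, against 3.19% of all genes): Ccl5, Ccl17, Cxcl9 and Ppbp. For 0 genes did that test pass the adjusted threshold (the smallest adjusted p was 0.660), and each label and treatment held 2 arrays.

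**Figure D2:**
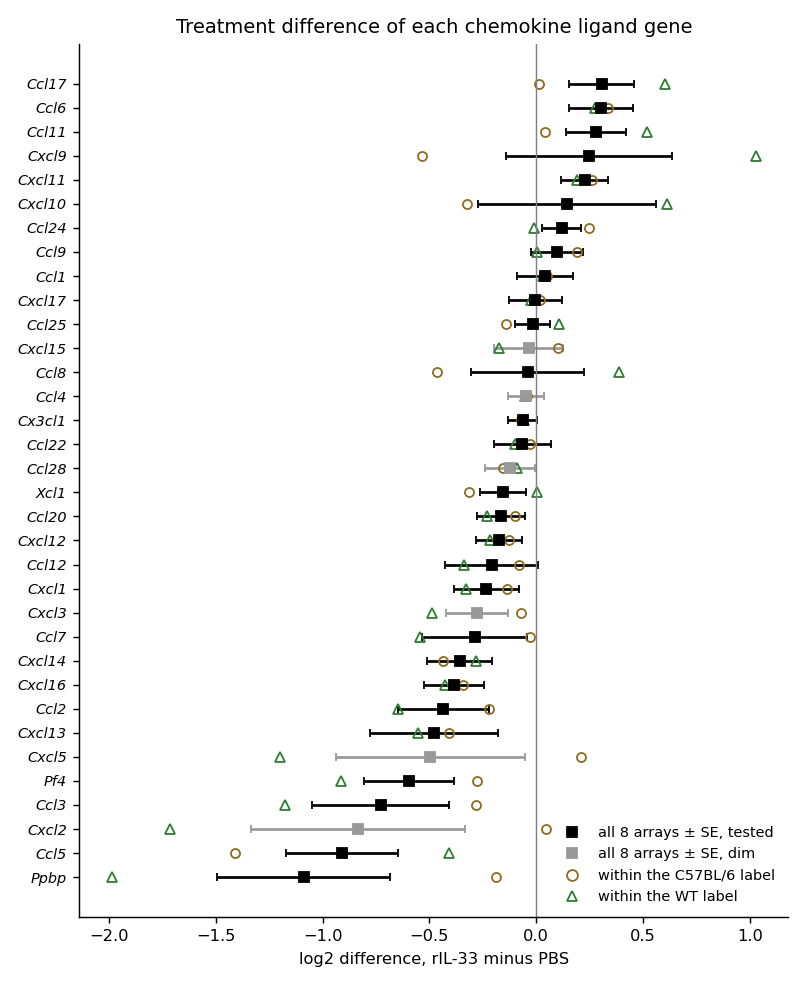
Log2 difference, rIL-33 minus PBS, of each member over all 8 arrays (with its SE from limma) and within each genetic background label. Ppbp, Ccl5 and Ccl3 lay lowest among the tested members, at -1.09, -0.91 and -0.73, and Cxcl9 and Ppbp lay on opposite sides of 0 within the WT label.

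The gene pair Ppbp and Pf4 and the ligands of CXCR2, the main neutrophil chemokine receptor, are neighbours: Cxcl5, Ppbp, Pf4, Cxcl3, Cxcl15, Cxcl1 and Cxcl2 are 7 consecutive coding genes on chromosome 5 in RefSeq. The windows that follow are the 200 bases before the annotated start, printed 5′ to 3′ on the strand of the gene, from RefSeq on GRCm38.p6. They are those of Ppbp, which differed most in this row within the WT label, and of Cxcl1, Cxcl2 and Cxcl3, which share a motif. No window was available for Cxcl5. Capitals mark matches on either strand to the NF-kB motif (GGG and TTCC with any 3 bases between) and to the TATA box letters TATAAA; matches may overlap. Windows are at chr5:90768318-90768517 for Ppbp, chr5:90785901-90786100 for Cxcl3, chr5:90891045-90891244 for Cxcl1 and chr5:90903699-90903898 for Cxcl2, all on the plus strand.
Ppbp: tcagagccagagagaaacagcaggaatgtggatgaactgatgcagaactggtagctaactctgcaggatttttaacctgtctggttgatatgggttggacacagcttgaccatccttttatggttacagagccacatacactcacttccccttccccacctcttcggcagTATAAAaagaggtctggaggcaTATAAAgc
Cxcl3: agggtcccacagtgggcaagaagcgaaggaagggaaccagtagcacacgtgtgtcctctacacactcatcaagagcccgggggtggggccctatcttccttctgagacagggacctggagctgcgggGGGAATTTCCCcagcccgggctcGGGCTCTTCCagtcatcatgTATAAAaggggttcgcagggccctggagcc
Cxcl1: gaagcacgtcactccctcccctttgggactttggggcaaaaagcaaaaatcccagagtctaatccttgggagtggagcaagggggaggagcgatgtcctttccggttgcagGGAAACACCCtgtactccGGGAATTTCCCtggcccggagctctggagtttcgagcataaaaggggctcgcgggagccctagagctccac
Cxcl2: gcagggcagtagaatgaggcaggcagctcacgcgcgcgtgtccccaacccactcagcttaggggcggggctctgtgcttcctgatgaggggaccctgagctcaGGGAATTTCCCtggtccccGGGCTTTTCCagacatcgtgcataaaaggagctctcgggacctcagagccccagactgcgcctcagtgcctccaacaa

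Cxcl1, Cxcl2 and Cxcl3 shared the 11-base run GGGAATTTCCC, which holds 2 overlapping NF-kB matches and began 71, 97 and 73 bases before the start. That run was in 11 of 32851 RefSeq windows of this length (0.0335%), 3 of them these genes. The Ppbp window held no NF-kB match and 2 TATAAA matches, 30 and 8 bases before the start, and the Pf4 window held neither motif. NF-kB letters stood in 7 of the 25 member windows and in 3.91% of all windows, and TATAAA in 10 of the 25 and in 9.96% of all. Letters in these windows are a description and no evidence of binding.

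Ppbp encodes the platelet basic protein, from which the neutrophil attractant NAP-2 is cut, and is made by megakaryocytes and carried by platelets. Its log2 intensity on PBS replicates 1 to 4 was 8.25, 7.43, 9.52 and 9.59, and on rIL-33 replicates 1 to 4 it was 7.54, 7.76, 7.57 and 7.57. Both WT-labelled PBS arrays were high, while PBS replicate 2 was the lowest of all 8, so the groups overlapped. Over all arrays Ppbp was 8.70 ± 1.05 (SD, n = 4) in PBS and 7.61 ± 0.10 (SD, n = 4) in rIL-33 muscle, a difference of -1.09 (SE 0.41), or 2.13-fold lower (limma, adjusted p = 0.489). Without PBS replicate 3 the difference was -0.82 and without PBS replicate 4 it was -0.79, each at an unadjusted p above 0.05.

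Within the WT label Ppbp fell by 1.99 on the log2 scale, a 3.97-fold lower level (SE 0.22, limma adjusted p = 0.0233), and was 1 of the 7 genes (0.0473% of those tested) past the adjusted threshold there. Within the C57BL/6 label the difference was -0.19 (SE 0.22), and the labels differed by -1.80 (SE 0.31, adjusted p = 0.660), a difference at an unadjusted p under 0.05 with each array left out in turn (-2.21 to -1.38). Each of these values rests on 2 arrays a group. In the fit over both labels, the adjusted p within the WT label was above 0.05 without any 1 of 5 arrays: it was 0.0677 with either C57BL/6-labelled rIL-33 array left out, 0.0812 with rIL-33 replicate 3, 0.101 with PBS replicate 3 and 0.207 with PBS replicate 4 left out.

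Pf4, platelet factor 4, is stored with Ppbp products in platelet granules and is also made by some macrophages. On PBS replicates 1 to 4 it read 9.93, 9.27, 9.71 and 10.09, and on rIL-33 replicates 1 to 4 it read 8.92, 9.72, 8.86 and 9.11. Of the rIL-33 arrays 3 lay below every PBS array, and rIL-33 replicate 2 lay among them. Pf4 was 9.75 ± 0.35 against 9.15 ± 0.39 (SD, n = 4 each), a difference of -0.60 (SE 0.21), or 1.51-fold lower (limma adjusted p = 0.489). It differed by -0.28 within the C57BL/6 label and by -0.92 within the WT label (adjusted p = 0.402). The unadjusted p was above 0.05 without PBS replicate 4, where the difference was -0.48, and without rIL-33 replicate 3, where it was -0.50. Of 8 listed platelet markers 4 had a value, all were tested, and 0 were at an unadjusted p under 0.05. Their summed intensity was 617 to 909 in PBS and 691 to 801 in rIL-33 muscle, and the differences were 0.10 for Itga2b, -0.08 for Gp9, 0.02 for Gp5 and -0.07 for Treml1.

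**Figure D3:**
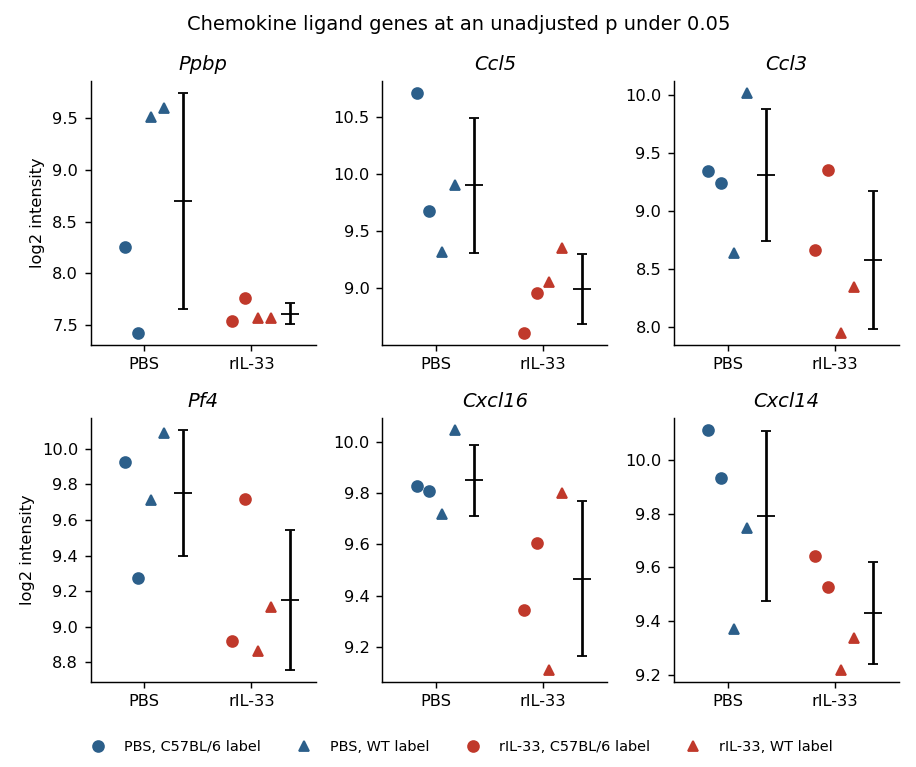
Log2 intensity by array of the 6 members at an unadjusted p under 0.05, all lower after rIL-33 (points are arrays, circles the C57BL/6 and triangles the WT label, blue PBS and red rIL-33, black bars the mean ± SD, n = 4). The 2 WT-labelled PBS arrays of Ppbp stand at 9.52 and 9.59, above the other 6 arrays, and rIL-33 and PBS arrays overlap in every panel.

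The CXCR2 ligands proper were low, and for Cxcl1, Cxcl2, Cxcl3 and Cxcl5 PBS replicate 4 was the highest array and PBS replicate 3 the next. Cxcl1, also called KC, was the only tested one, with 6.81, 7.10, 7.35 and 7.50 on the PBS arrays and 6.65, 6.98, 7.12 and 7.07 on the rIL-33 arrays. Its difference was -0.23 (SE 0.15), with -0.14 within the C57BL/6 and -0.33 (SE 0.14, limma adjusted p = 0.404) within the WT label. It was -0.13 without PBS replicate 4 or rIL-33 replicate 1, and -0.36, at an unadjusted p under 0.05, without PBS replicate 1. Cxcl2, also called MIP-2, was dim on every array except PBS replicates 3 and 4, reading 5.98, 6.02, 6.73 and 8.77 against 5.91, 6.18, 6.21 and 5.86. The difference was -0.84 (SE 0.50, fitted with dim genes kept in), and -0.20 without PBS replicate 4. Cxcl5, a ligand also made by epithelium and stroma, was above the dim level on PBS replicate 4 only. It read 5.49, 5.87, 6.05 and 8.06 in PBS and 5.69 to 6.03 in rIL-33 muscle, and its difference of -0.50 became 0.07 without PBS replicate 4. Cxcl3 was below the dim level throughout, at 5.71 to 6.46 in PBS and 5.76 to 5.90 in rIL-33 muscle, with a difference of -0.28 (SE 0.15), and -0.16 without PBS replicate 4. Within the WT label Cxcl2, Cxcl3 and Cxcl5 differed by -1.71, -0.49 and -1.20, and within the C57BL/6 label by 0.04, -0.07 and 0.21. With dim genes kept in, the labels differed at an unadjusted p under 0.05 in limma for Cxcl2 (-1.76) and Cxcl3 (-0.41), each at an adjusted p of 0.999. The Cxcl15 gene, expressed chiefly in lung, was dim on all arrays (4.76 to 5.51).

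Summed over their list, neutrophil markers were highest on PBS replicates 3 and 4. Of 14 listed markers 13 had a value and 6 were tested; all 6 were lower, and Mmp9, a granule protease, was the 1 at an unadjusted p under 0.05 (-0.64, SE 0.25). Their summed intensity was 1346 and 1351 on PBS replicates 1 and 2, 2571 on PBS replicate 3 and 4597 on PBS replicate 4, against 1349 to 1603 on the rIL-33 arrays. The median difference of the 6 was 0.04 within the C57BL/6 label and -1.11 within the WT label. The dim markers were S100a8, Ltf, Camp, Cxcr2, Mmp8, Retnlg and Ly6g. Cxcr2, the receptor, read 8.71 on PBS replicate 4 and 4.91 to 5.65 elsewhere. Retnlg was higher after rIL-33 by 0.34 (SE 0.16), at 5.35 to 6.08 in PBS and 6.01 to 6.14 in rIL-33 muscle, while the other dim markers were lower. The part of neutrophils in the Ppbp, Cxcl2 and Cxcl5 values was not tested.

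The ligands of CCR1, a receptor of monocytes and other myeloid cells, held the lowest p among the members. Ccl5 (RANTES), made in quantity by cytotoxic lymphocytes, read 10.71, 9.67, 9.32 and 9.91 on PBS replicates 1 to 4 and 8.61, 8.96, 9.06 and 9.35 on rIL-33 replicates 1 to 4. Only rIL-33 replicate 4 reached into the PBS range, just above PBS replicate 3. The means were 9.90 ± 0.59 and 8.99 ± 0.31 (SD, n = 4 each), a difference of -0.91 (SE 0.26), or 1.88-fold lower (limma adjusted p = 0.489). Ccl5 stayed at an unadjusted p under 0.05 with each array left out in turn, with differences of -1.10 to -0.64. Within the C57BL/6 label the difference was -1.41 (SE 0.31, adjusted p = 0.876), and within the WT label -0.41 (SE 0.31). The labels differed by 1.00 (SE 0.44, adjusted p = 0.999), with an unadjusted p just under 0.05. That p was above 0.05 under quantile normalization (0.94), with trend and robust in eBayes, and without rIL-33 replicate 1 (0.83) or 4 (0.85) or PBS replicate 1 (0.48) or 3 (0.71).

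Lymphocyte markers were lower beside Ccl5. Of 10 NK and cytotoxic cell markers 9 were tested and 8 were lower, with Gzmk (-0.73), Klrd1 (-0.47) and Eomes (-0.57) at an unadjusted p under 0.05. Klrb1c was dim. The summed intensity of this list was 1342 to 2667 in PBS and 1054 to 1676 in rIL-33 muscle, and the median difference was -0.79 within the C57BL/6 label and -0.01 within the WT label, the same order as for Ccl5. All 8 tested T cell markers of 10 listed were lower, 3 of them at an unadjusted p under 0.05 (Cd247, Cd4 and Cd8b1), Cd3d being dim, and their sum was 1263 to 2166 in PBS and 1041 to 1483 in rIL-33 muscle. Their part in the Ccl5 difference was not tested. Xcl1 (lymphotactin), secreted by activated cytotoxic and NK cells, read 6.82 to 7.07 in PBS and 6.51 to 7.01 in rIL-33 muscle, with -0.31 within the C57BL/6 label (SE 0.13, limma adjusted p = 0.947) and 0.00 within the WT label. Over both labels it differed by -0.15 (SE 0.11), by -0.07 without rIL-33 replicate 1 and by -0.23, at an unadjusted p under 0.05, without rIL-33 replicate 4.

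Ccl3 (MIP-1 alpha), a product of activated macrophages and neutrophils, read 9.35, 9.24, 8.64 and 10.02 in PBS and 8.67, 9.36, 7.95 and 8.35 in rIL-33 muscle. PBS replicate 4 was the highest array and the WT-labelled rIL-33 arrays the lowest, and rIL-33 replicate 2 was above 3 PBS arrays. The difference was -0.73 (SE 0.32), or 1.66-fold lower, between 9.31 ± 0.57 and 8.58 ± 0.59 (SD, n = 4 each; limma adjusted p = 0.512). It was -0.28 within the C57BL/6 label and -1.18 within the WT label (SE 0.39, adjusted p = 0.402), and a difference between the labels did not reach an unadjusted p under 0.05. Without PBS replicate 4 it was -0.49, and the unadjusted p stayed under 0.05 in 2 of the 8 fits that left out an array. Ccl4 (MIP-1 beta), a close relative next to it on chromosome 11, was dim, at 6.47 to 6.68 in PBS and 6.39 to 6.64 in rIL-33 muscle.

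Ccl6 and Ccl9 are mouse CCR1 ligands made by macrophages and other myeloid cells, and lie beside Ccl5, Ccl3 and Ccl4 in a run of 5 consecutive coding genes on chromosome 11. Ccl6 went the other way, with 10.59, 10.23, 10.24 and 10.97 in PBS and 10.70, 10.79, 10.84 and 10.91 in rIL-33 muscle. All rIL-33 arrays lay above PBS replicates 1 to 3 and below PBS replicate 4, so that the difference was 0.30 (SE 0.15, limma adjusted p = 0.536) with that array and 0.46 (adjusted p = 0.883) without it. Ccl9 differed by 0.10 (SE 0.12), and by 0.02 to 0.21 with an array left out, at 9.16 to 9.72 in PBS and 9.38 to 9.53 in rIL-33 muscle.

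The CCR2 ligands, which call inflammatory monocytes out of the blood, did not pass any adjusted threshold. Ccl2 (MCP-1) read 9.15, 8.73, 9.35 and 9.52 in PBS and 8.24, 9.21, 8.66 and 8.91 in rIL-33 muscle, and the groups overlapped. Its difference was -0.43 (SE 0.21, limma adjusted p = 0.536), with -0.22 within the C57BL/6 label and -0.65 within the WT label (adjusted p = 0.404). It was -0.26 without rIL-33 replicate 1 and reached an unadjusted p under 0.05 in 2 of the 8 fits that left out an array, those without replicate 2 of either group. Ccl7 (MCP-3) differed by -0.29 (SE 0.25), by -0.08 without PBS replicate 4, which at 9.75 lay above the other PBS arrays (8.84 to 8.99), by -0.14 without rIL-33 replicate 1, and by -0.50 without rIL-33 replicate 2, where the unadjusted p was under 0.05. For Ccl12 (MCP-5) the difference was -0.21 (SE 0.22) and lay between -0.35 without PBS replicate 2 and 0.01 without PBS replicate 4. Ccl8 (MCP-2), which in mice acts on CCR8, differed by -0.04 (SE 0.26), with -0.47 within the C57BL/6 label and 0.39 within the WT label. The receptor gene Ccr2 differed by -0.00 (SE 0.17).

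Macrophage markers were mostly lower beside these ligands. All 13 were tested and 11 were lower; Adgre1, Fcgr1, Cx3cr1, Ms4a7, C1qb and Lyz2 were lower and Cd163 higher at an unadjusted p under 0.05. Their summed intensity was 21823 to 25628 in PBS and 16753 to 22860 in rIL-33 muscle, and their part in the Ccl3, Pf4 and Ccl2 values was not tested. The list of type 2 response genes in macrophages, to which Retnla belongs, had 9 of 12 tested. Retnla and Mgl2 (0.37) were higher and Cd209a (-0.41) lower at an unadjusted p under 0.05. Of the 9, 5 were higher and 4 lower, with a median difference of 0.01. The list sum, which includes Retnla, was 3532 to 4659 in PBS and 5107 to 5689 in rIL-33 muscle. Retnla alone read 7.55 to 8.56 on the log2 scale in PBS and 10.06 to 11.03 in rIL-33 muscle.

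Cxcl9, Cxcl10 and Cxcl11 are interferon-induced ligands of CXCR3, the receptor of effector T cells and NK cells, and lie within 4 consecutive coding genes on chromosome 5. The windows before the starts of Cxcl9 and Cxcl10 are shown because Cxcl9 had the largest positive difference between the labels among the tested members and Cxcl10 is its near neighbour; they lie on the minus strand at chr5:92328080-92328279 and chr5:92348890-92349089 (GRCm38.p6, RefSeq), with NF-kB and TATAAA matches in capitals.
Cxcl9: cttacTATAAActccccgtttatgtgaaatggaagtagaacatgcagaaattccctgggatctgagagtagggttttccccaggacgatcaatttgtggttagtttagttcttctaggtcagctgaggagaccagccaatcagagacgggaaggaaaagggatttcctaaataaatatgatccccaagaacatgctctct
Cxcl10: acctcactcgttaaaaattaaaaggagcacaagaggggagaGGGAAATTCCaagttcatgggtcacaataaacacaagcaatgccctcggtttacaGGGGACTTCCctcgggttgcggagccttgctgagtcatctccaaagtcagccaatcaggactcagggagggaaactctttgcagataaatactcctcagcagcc

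The Cxcl10 window held 2 NF-kB matches, 159 and 104 bases before the start, and the Cxcl9 window held 1 TATAAA match, 195 bases before it. Neither held the interferon-stimulated response element letters (TTTC and again TTTC with any 2 bases between), found in 2.27% of all windows, nor the STAT-site letters TTCNNNGAA, found in 5.49%. Other forms of interferon response elements were not searched for.

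Cxcl9 (MIG) read 9.82, 9.61, 9.55 and 9.81 in PBS and 8.65, 9.71, 10.91 and 10.51 in rIL-33 muscle. The PBS arrays were close together, while among the rIL-33 arrays the WT-labelled ones were the highest of all 8 and replicate 1 the lowest. The means were 9.69 ± 0.14 and 9.94 ± 1.00 (SD, n = 4 each), a difference of 0.25 (SE 0.39, limma adjusted p = 0.89). Within the WT label Cxcl9 was 2.04-fold higher (1.03, SE 0.29, adjusted p = 0.402), and within the C57BL/6 label it differed by -0.53 (SE 0.29). The labels differed by 1.56 (SE 0.41, adjusted p = 0.999), and this stayed at an unadjusted p under 0.05 with each array left out in turn (1.03 to 2.09). Over both labels the difference was 0.68, at an unadjusted p under 0.05, without rIL-33 replicate 1 and -0.07 without rIL-33 replicate 3.

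Cxcl10 (IP-10) read 8.79, 9.03, 8.82 and 9.98 in PBS and 8.07, 9.10, 10.15 and 9.87 in rIL-33 muscle. Its difference was 0.14 (SE 0.42), with -0.32 within the C57BL/6 label and 0.61 within the WT label, and the labels differed by 0.94 (SE 0.55) at an unadjusted p above 0.05. Cxcl11 (I-TAC) differed by 0.23 (SE 0.11, limma adjusted p = 0.536), with values of 6.47 to 6.95 in PBS and 6.95 to 7.18 in rIL-33 muscle and differences of 0.26 within the C57BL/6 and 0.19 within the WT label. Without PBS replicate 1 the Cxcl11 difference was 0.12, and without PBS replicate 3 it was at an unadjusted p under 0.05. Cxcr3, their receptor, was lower by 0.34 (SE 0.14, limma adjusted p = 0.505), with -0.60 within the C57BL/6 label and -0.09 within the WT label.

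**Figure D4:**
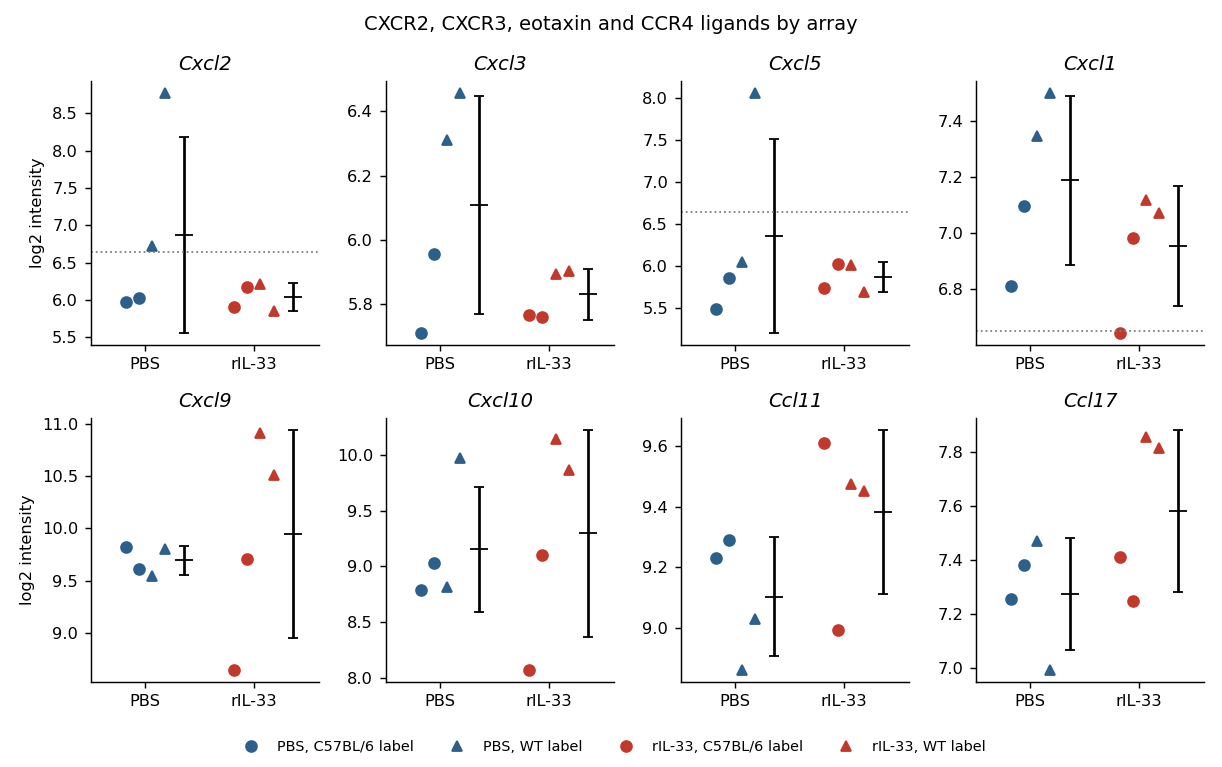
Log2 intensity by array of CXCR2 ligands (Cxcl2, Cxcl3, Cxcl5, Cxcl1), CXCR3 ligands (Cxcl9, Cxcl10), the eotaxin Ccl11 and the CCR4 ligand Ccl17 (points are arrays, circles the C57BL/6 and triangles the WT label, black bars the mean ± SD, n = 4, dotted line the dim level where it is in range). PBS replicate 4 is the highest array for Cxcl2 (8.77) and Cxcl5 (8.06), and the WT-labelled rIL-33 arrays are highest for Cxcl9 (10.91 and 10.51).

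Other interferon gamma response genes followed the same arrays. Of 18 listed 13 had a value and 12 were tested, all 12 of them higher; Gbp3 (0.50), Gbp4 (1.16), Cd274 (1.04) and Iigp1 (1.72) were at an unadjusted p under 0.05, and Ido1 was dim. Their summed intensity was 4108 to 5304 on the PBS arrays and 5063, 5381, 18568 and 9677 on rIL-33 replicates 1 to 4. The median difference was 0.01 within the C57BL/6 label and 0.88 within the WT label. Their part in the Cxcl9 difference was not tested.

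Ccl11 and Ccl24, the eotaxins, attract eosinophils through CCR3. Ccl11 read 9.23, 9.29, 8.86 and 9.03 in PBS and 9.61, 8.99, 9.47 and 9.45 in rIL-33 muscle. Of the rIL-33 arrays 3 lay above every PBS array and replicate 2 lay among them. Ccl11 was 9.10 ± 0.20 against 9.38 ± 0.27 (SD, n = 4 each), a difference of 0.28 (SE 0.14, limma adjusted p = 0.543), with 0.04 within the C57BL/6 label and 0.52 within the WT label (adjusted p = 0.402). Ccl24 differed by 0.12 (SE 0.09), with 0.25 within the C57BL/6 and -0.01 within the WT label, and by 0.07 without rIL-33 replicate 2 and 0.18 without rIL-33 replicate 4.

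Their receptor gene Ccr3 was higher by 0.38 (SE 0.09), with no overlap between the groups (6.38 to 6.62 in PBS and 6.74 to 7.07 in rIL-33 muscle), and had an adjusted p of 0.489 in limma. Of 6 eosinophil markers 3 were tested, with Ccr3 and Alox15 (0.50) higher at an unadjusted p under 0.05 and Siglecf at -0.03, while Epx, Prg2 and Prg3, which encode granule proteins, were dim. The list summed to 606 to 786 in PBS and 699 to 866 in rIL-33 muscle, and its part in the Ccl11 values was not tested. Ccl28, a mucosal ligand that also binds CCR3, was dim (6.14 to 6.66).

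Ccl17 (TARC) and Ccl22 (MDC) bind CCR4, a receptor of type 2 helper and regulatory T cells, and are made by dendritic cells and alternatively activated macrophages. Ccl17 read 7.26, 7.38, 7.47 and 6.99 in PBS and 7.41, 7.25, 7.85 and 7.81 in rIL-33 muscle. The WT-labelled rIL-33 arrays were the highest of all 8, and the C57BL/6-labelled arrays of both groups were alike in range. Its difference was 0.31 (SE 0.15, limma adjusted p = 0.539), with 0.01 within the C57BL/6 label and 0.60 within the WT label (SE 0.15, adjusted p = 0.402). With an array left out the difference over both labels ranged from 0.21 to 0.42, and its unadjusted p was under 0.05 in 2 of 8 such fits. The labels differed by 0.59 (SE 0.21, adjusted p = 0.999), and the unadjusted p was above 0.05 without rIL-33 replicate 2 (0.51) or PBS replicate 2 (0.53) or 4 (0.35). Ccl22 differed by -0.06 (SE 0.13), and the receptor gene Ccr4 was dim.

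The dendritic cell markers, all 6 tested, had Itgax higher by 0.55 and Flt3, Xcr1 and Ccr7 lower (by 0.34, 0.38 and 0.53) at an unadjusted p under 0.05, with sums of 1271 to 1548 in PBS and 1200 to 1461 in rIL-33 muscle. Their part in the Ccl17 values was not tested.

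Among ligands of the homeostatic and membrane-anchored kinds, Cxcl16 and Cxcl14 were lower. Cxcl16, a membrane-bound ligand of CXCR6 and a scavenger receptor of macrophages, read 9.83, 9.81, 9.72 and 10.05 in PBS and 9.34, 9.61, 9.11 and 9.80 in rIL-33 muscle. Only rIL-33 replicate 4 reached the PBS range. The means were 9.85 ± 0.14 and 9.47 ± 0.30 (SD, n = 4 each), a difference of -0.39 (SE 0.14), or 1.31-fold lower (limma adjusted p = 0.489), with -0.35 and -0.43 within the C57BL/6 and WT labels. The unadjusted p was above 0.05 without rIL-33 replicate 1 (-0.34), without rIL-33 replicate 3 (-0.27) and without PBS replicate 4 (-0.32). The receptor gene Cxcr6 differed by 0.38 (SE 0.21), in the opposite direction.

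Cxcl14 (BRAK), made by fibroblasts and epithelium, read 10.11, 9.93, 9.37 and 9.75 in PBS and 9.64, 9.53, 9.22 and 9.34 in rIL-33 muscle. Within each label both rIL-33 arrays lay below both PBS arrays, while the groups overlapped across labels. The difference was -0.36 (SE 0.15), or 1.28-fold lower, between 9.79 ± 0.32 and 9.43 ± 0.19 (SD, n = 4 each; limma adjusted p = 0.509), with -0.44 (adjusted p = 0.947) within the C57BL/6 label and -0.28 within the WT label. With an array left out it ranged from -0.50 to -0.25, and the unadjusted p stayed under 0.05 in 3 of 8 such fits.

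Cxcl12 (SDF-1), the stromal ligand that holds CXCR4-bearing cells, read 9.43, 9.42, 9.17 and 9.46 in PBS and 9.27, 9.33, 8.91 and 9.29 in rIL-33 muscle. Replicate 3 was the lowest array in both groups, and the difference was -0.17 (SE 0.11, limma adjusted p = 0.623), -0.08 without rIL-33 replicate 3 and at an unadjusted p under 0.05 without PBS replicate 3. Its receptor gene Cxcr4 was lower by 0.25 (SE 0.11, adjusted p = 0.512). Fibro-adipogenic progenitor markers, which mark fibroblast-like cells of muscle, were all lower: 8 of 10 listed had a value and were tested, and Pdgfra, Dpt, Dcn, Lum, Mfap5 and Cd34 were at an unadjusted p under 0.05. Their sums did not overlap, at 20249 to 23028 in PBS and 15328 to 17834 in rIL-33 muscle, and their part in the Cxcl14 difference was not tested.

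Cxcl13, the B cell attractant that signals through CXCR5, read 8.06, 8.35, 7.50 and 9.32 in PBS and 7.76 to 7.96 in rIL-33 muscle. The PBS arrays spread on both sides of the rIL-33 arrays. Its difference was -0.48 (SE 0.30, limma adjusted p = 0.622), -0.14 without PBS replicate 4 and -0.75, at an unadjusted p under 0.05, without PBS replicate 3. The 3 tested B cell markers of 6 listed were lower, 0 of them at an unadjusted p under 0.05, with Cd79a and Ms4a1 dim and sums of 558 to 687 in PBS and 561 to 631 in rIL-33 muscle; Cxcr5 was dim. Cx3cl1 (fractalkine), the membrane-anchored ligand of CX3CR1 on endothelium, differed by -0.06 (SE 0.07). Its receptor gene Cx3cr1, a macrophage and monocyte gene, was lower by 0.38 (SE 0.07) with no overlap between the groups (adjusted p = 0.489). The 8 endothelial markers were tested, and Cdh5, Emcn and Eng were lower and Vwf higher at an unadjusted p under 0.05, with sums of 8529 to 9236 in PBS and 7281 to 8532 in rIL-33 muscle.

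The remaining members differed by at most 0.16 by their brighter probe set. Ccl20, the ligand of CCR6 on Th17-type cells, differed by -0.16 (SE 0.11), with -0.11 without PBS replicate 4 and -0.25, at an unadjusted p under 0.05, without PBS replicate 2. Ccl1, a ligand of CCR8, differed by 0.04 (SE 0.13), and Cxcl17, a mucosal chemokine, by -0.00 (SE 0.12). Ccl25, a gut and thymus ligand of CCR9, differed by -0.02 (SE 0.08) by its brighter probe set, while its other probe set gave 0.20 with all rIL-33 arrays (7.36 to 7.62) above all PBS arrays (7.24 to 7.35), so that the probe sets disagreed.

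Over the chemokine receptor genes, 17 had a value and 10 were tested, with 7 lower and 3 higher. At an unadjusted p under 0.05 limma placed 5 lower (Ccr7, Cxcr3, Cxcr4, Cx3cr1 and Xcr1), where 5.24% of all genes were, and 1 higher (Ccr3), where 4.39% were. Of these receptors 0 passed the adjusted threshold. Ccr7, the lymph node homing receptor, was lower by 0.53 (SE 0.11) and Xcr1, the Xcl1 receptor of cross-presenting dendritic cells, by 0.38 (SE 0.08). Ccr1, a receptor of Ccl3, Ccl5, Ccl6 and Ccl9, was dim on average, at 8.09 on PBS replicate 4 and 6.00 to 6.55 elsewhere. Of the 5 atypical receptors, which do not signal to migration as the others do, 4 were tested and 0 were at an unadjusted p under 0.05.

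**Figure D5:**
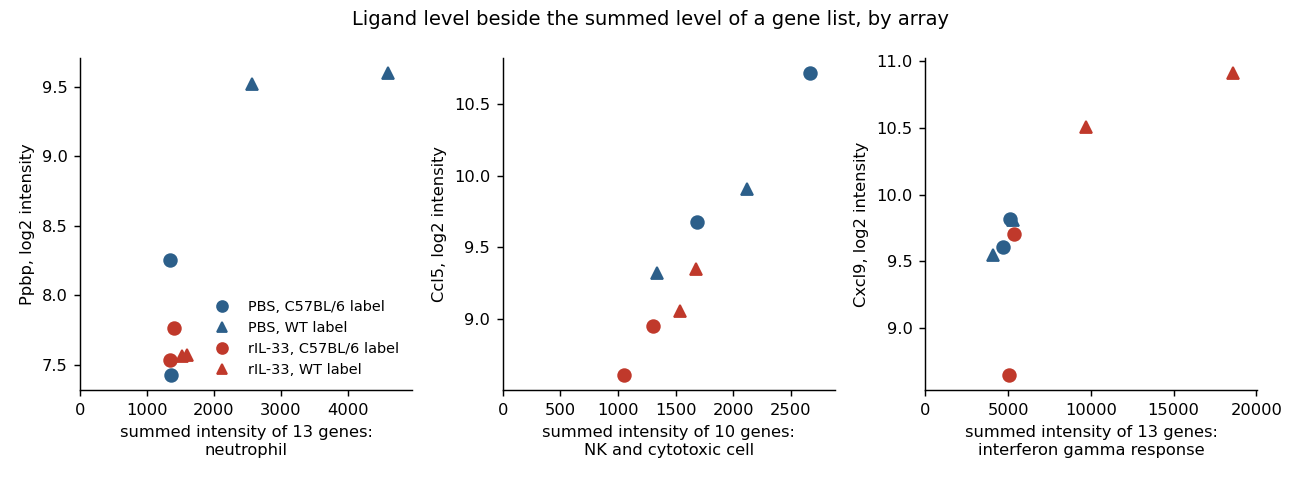
Log2 intensity of Ppbp, Ccl5 and Cxcl9 on each array against the summed intensity of the neutrophil, NK and cytotoxic cell, and interferon gamma response lists (points are arrays, circles the C57BL/6 and triangles the WT label, blue PBS and red rIL-33). The 2 WT-labelled PBS arrays are high for Ppbp and the neutrophil sum (2571 and 4597), and the 2 WT-labelled rIL-33 arrays for Cxcl9 and the interferon gamma sum (18568 and 9677).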

How the data were processed

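Whole injured muscle of 4 rIL-33 and 4 PBS samples was measured, each on an Affymetrix array of the Mouse Gene 1.0 ST type. The authors deposited probe set intensities. Per the submitters' processing notes, RMA and Affymetrix Power Tools were used, with versions not given. RMA corrects background and is meant to equalise array distributions, and it compresses folds of dim probe sets. The deposited distributions were not equal: upper quartiles ran from 511.6 (PBS replicate 3) to 590.4 (PBS replicate 1), and lower quartiles differed between the labels. The deposited intensity values were linear, so log2 was taken here. Per gene, the probe set with 1 symbol and the highest mean over 8 arrays was used. Genes whose mean lay below the 25th percentile were not tested; dim members were fitted without that filter.

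Treatments were compared with lmFit and eBayes (limma 3.58.1, R 4.3.3) on 8 arrays without a block, and p-values were adjusted by Benjamini-Hochberg over 14814 genes at a threshold of 0.05. Values within each label and their difference came from a fit of 4 groups with 1 pooled spread. Since no label ties an array to a mouse of its own, the p-values reflect only the spread among these samples, which may be technical. Arrays give no depth, and their number limits the precision. The code of the fit was checked on simulated data, with independent noise of the spread within treatment and label. That check holds no label differences, so it does not show which sizes of change these 8 arrays can reveal. All 34 members are named whatever their values, as are marker and receptor genes at an unadjusted p under 0.05 and the receptors of members given in full. Marker counts at that level stand beside 5.24% of all genes lower and 4.39% higher. The members and lists were chosen with earlier results of these data known. All 34 matched RefSeq by symbol, and 24 had a promoter window. Alternatives were quantile and cyclic loess normalization, other dim filters, eBayes with trend and robust, array weights, blocks for replicate number or label, each label alone, the mean of probe sets, and each array left out; those for Ppbp within the WT label were chosen after seeing the data. Figures used Python 3.11.15 and matplotlib 3.10.9.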

Additional observations from a re-analysis of the deposited data

Results flagged for a closer look

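Within 1 group of 4 arrays, a single array lay far from the other 3 for 5 members, in 6 of the 68 groups examined; chance gives about 1 in 20 groups. Ccl7 read 9.75 on PBS replicate 4 against 8.84 to 8.99 on the other PBS arrays. Cxcl12 read 9.17 on PBS replicate 3 against 9.42 to 9.46, and 8.91 on rIL-33 replicate 3 against 9.27 to 9.33. Ppbp read 7.76 on rIL-33 replicate 2 against 7.54 to 7.57, Ccl4 6.39 on rIL-33 replicate 1 against 6.60 to 6.64, and Ccl9 9.38 on rIL-33 replicate 3 against 9.51 to 9.53.

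The treatment difference was compared between the genetic background labels for 28 members, and 4 differed at an unadjusted p under 0.05 in limma, none of them at an adjusted p under 0.05 (0.660 for Ppbp and 0.999 for the other 3). The difference within WT minus that within C57BL/6 was 1.00 for Ccl5, 0.59 for Ccl17, 1.56 for Cxcl9 and -1.80 for Ppbp.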

How the results depend on the processing

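Of 582 comparisons of a member with an alternative, 542 kept direction and side of the adjusted threshold and 39 in 13 members reversed. In 1 the difference became stronger (Ppbp on the WT-labelled arrays alone, -1.99, limma adjusted p = 0.000638). The causes were not tested. No member was near the threshold in the main fit (smallest adjusted p 0.489 in limma), so the 542 mostly count kept signs. The alternatives reuse the same 8 arrays and are not independent. Genes past the adjusted threshold numbered 0 with the replicate number as a block, 2 on C57BL/6-labelled and 4 on WT-labelled arrays alone, and 1 to 2 with an array left out. Genes higher at an unadjusted p under 0.05 numbered 333 with array weights, 1108 with the replicate block, 1174 with the label as a block, 290 on C57BL/6-labelled and 1095 on WT-labelled arrays alone, and 270 to 949 with an array left out, against 651. Genes lower numbered 471, 1219 with the replicate block, 494 on C57BL/6-labelled arrays alone and 368 to 943 with an array left out, against 776. Members higher numbered 2 under quantile, cyclic loess, the replicate block and the label block, 1 and 3 on the C57BL/6-labelled and WT-labelled arrays alone, and 0 to 2 with an array left out, against 0; members lower numbered 1 to 8 with an array left out, against 6. Same-numbered arrays correlated by 0.44, -0.19, 0.43 and 0.54 in their deviations from the group means, and by -0.28 (C57BL/6) and 0.32 (WT) in their deviations from the means of treatment and label; since 1 of the 4 pairs was negative, the numbers were not taken as pairs, and the block, with 8 members lower, is given only here. For the difference between labels, 0 to 8 genes passed the adjusted threshold, and 269 to 881 genes and 3 to 7 members the unadjusted one, with an array left out. Within the WT label, Ppbp was -2.03 to -1.95 with an array left out. Reversals were Ccl25 0.024 and Cxcl17 0.023 under quantile, Ccl25 0.0038 and Cxcl17 0.021 under loess, Ccl22 0.076 and Cxcl17 0.020 with array weights, Cxcl9 -0.53, Cxcl10 -0.32 and Cxcl17 0.017 on C57BL/6-labelled arrays, Ccl8 0.39, Ccl24 -0.0087, Ccl25 0.11 and Xcl1 0.0042 on WT-labelled arrays, and Ccl25 0.092 as the mean of probe sets and 0.20 by its other one. With an array left out, reversing members ranged from -0.044 to 0.15 (Ccl1), -0.10 to 0.0087 (Ccl4), -0.25 to 0.13 (Ccl8), -0.35 to 0.0096 (Ccl12), -0.15 to 0.032 (Ccl22), -0.075 to 0.019 (Ccl25), -0.79 to 0.069 (Cxcl5), -0.073 to 0.68 (Cxcl9), -0.14 to 0.55 (Cxcl10), -0.16 to 0.089 (Cxcl15) and -0.084 to 0.088 (Cxcl17). Members near the dim level, such as Cxcl2, Cxcl3 and Cxcl5, are limited by their signal over background.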

Other observations

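The mast cell list, fixed with the others, had 4 of 7 markers tested, of which 3 were lower and 0 were at an unadjusted p under 0.05 in limma; Cma1, Ms4a2 and Fcer1a were dim. Its summed intensity was 1011 to 1656 in PBS and 1123 to 1196 in rIL-33 muscle.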
